A study of Mus musculus with 12 samples.

Results

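The genes Neurog3, Neurod1, Insm1, Nkx2-2 and Pax6 encode transcription factors that build the enteroendocrine lineage, the hormone-secreting cells scattered through the gut epithelium. Their surroundings were examined in 4 consensus lists of open chromatin, 1 list per sorted cell population. The members were every listed peak that overlapped 1 of 5 fixed mm9 windows, one drawn around each gene: chr10:61545000-61650000 for Neurog3, chr2:79240000-79345000 for Neurod1, chr2:145995000-146100000 for Insm1, chr2:146950000-147055000 for Nkx2-2 and chr2:105455000-105590000 for Pax6. These windows, 555 kb in all, held 84 of the 210325 peaks of the series. Overlapping or touching peaks of different lists were merged, which gave 37 regions in the windows out of 82365 in all.

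The study profiled intestinal epithelial cells of C57Bl/6 mice by Omni-ATAC-seq, in which a transposase cuts and tags accessible DNA. Cells were sorted by the level of a Sox9EGFP reporter into Sox9 Negative, Sox9 Sublow, Sox9 Low and Sox9 High populations, with 3 libraries (A to C) in each and 12 libraries in all. All populations carry the reporter and no treatment is named for them, and 12000 cells were collected per population. Neither the animals behind each library nor the age or sex of the mice are stated in the sources used here. Earlier studies of this reporter found stem cells of the crypt base mainly among Low cells and dividing progenitors mainly among Sublow cells. They found enteroendocrine and related secretory cells mainly among High cells, and differentiated cells among Negative cells. A population is therefore a gate on reporter level and not 1 cell type. A peak is a stretch that the consensus list of a population names, with a position and no height, read count or value per library, so depth is unknown, no value has a replicate error, and no test between populations could be made. A region absent from a list was not called there, which does not show that its DNA was closed. In bulk chromatin, more cells of a type and more accessibility per cell cannot be told apart.

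Enteroendocrine cells arise from secretory progenitors of the crypt. Neurog3 encodes a basic helix-loop-helix factor that is switched on briefly and commits a progenitor to the endocrine fate. Neurod1, another basic helix-loop-helix factor, acts after Neurog3 and carries differentiation forward. Insm1 encodes a zinc finger factor of endocrine and neuronal cells, Nkx2-2 a homeodomain factor that helps to allot endocrine subtypes, and Pax6 a paired-box factor that activates hormone genes such as the proglucagon gene. Basic helix-loop-helix factors bind the E-box, written CANNTG.

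The promoters of these genes are shown because E-boxes in them are the kind of word that NEUROG3 and NEUROD1 can bind. RefSeq sequence of build GRCm38.p6 was at hand for 4 of the 5 genes, as the 250 bases before each annotated start, with 2 starts for Pax6. Each is written 5′ to 3′ on the gene's own strand, with E-boxes in capitals. These GRCm38.p6 positions cannot be set against the mm9 peaks, and whether a peak covers a promoter was not analysed here.
Neurog3, chr10:62132840-62133089, plus strand: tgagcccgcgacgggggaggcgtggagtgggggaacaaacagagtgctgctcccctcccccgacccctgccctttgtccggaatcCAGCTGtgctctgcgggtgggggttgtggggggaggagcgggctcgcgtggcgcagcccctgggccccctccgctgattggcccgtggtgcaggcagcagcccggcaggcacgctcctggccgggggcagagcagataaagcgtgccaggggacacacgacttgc
Neurod1, chr2:79456637-79456886, minus strand: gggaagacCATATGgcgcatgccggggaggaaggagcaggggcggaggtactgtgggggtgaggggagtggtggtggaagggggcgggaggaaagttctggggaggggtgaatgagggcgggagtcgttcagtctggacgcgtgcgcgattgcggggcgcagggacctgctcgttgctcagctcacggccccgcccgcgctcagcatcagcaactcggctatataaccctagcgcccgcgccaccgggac
Nkx2-2, chr2:147186403-147186652, minus strand: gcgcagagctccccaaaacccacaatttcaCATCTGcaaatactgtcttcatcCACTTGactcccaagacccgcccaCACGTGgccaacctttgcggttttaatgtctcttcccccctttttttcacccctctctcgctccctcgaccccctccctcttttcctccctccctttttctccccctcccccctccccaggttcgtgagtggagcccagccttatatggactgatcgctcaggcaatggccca
Pax6, first start, chr2:105668646-105668895, plus strand: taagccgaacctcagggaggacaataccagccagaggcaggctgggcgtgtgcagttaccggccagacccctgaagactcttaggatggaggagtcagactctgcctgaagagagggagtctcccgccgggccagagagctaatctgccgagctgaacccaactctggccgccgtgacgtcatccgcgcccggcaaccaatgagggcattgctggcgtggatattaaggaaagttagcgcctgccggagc
Pax6, second start, chr2:105682213-105682462, plus strand: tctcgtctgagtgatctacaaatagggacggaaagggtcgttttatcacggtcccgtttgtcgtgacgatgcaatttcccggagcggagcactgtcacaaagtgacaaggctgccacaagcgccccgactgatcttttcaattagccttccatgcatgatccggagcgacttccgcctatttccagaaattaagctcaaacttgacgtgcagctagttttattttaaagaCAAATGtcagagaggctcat
The Neurog3 promoter held 1 E-box, CAGCTG, a word found in 13.0% of all 32851 promoters of the same length. The Neurod1 promoter held 1, CATATG. The Nkx2-2 promoter held 3, all different, and 1 of them was CATCTG. This word is the reverse complement of CAGATG, and a promoter held CAGATG on either strand in 14.4% of cases. The first Pax6 start had no E-box in this stretch and the second had 1, CAAATG. The general word CANNTG reads the same way on both strands and includes the other E-box words given here, and 66.2% of all promoters held at least 1, so these matches describe the letters only. ACAATG, a word that SOX factors can bind, was searched on both strands, was in none of the 5 sequences, and was in 10.7% of all promoters.

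Summed over the 5 windows, the number of listed peaks increased with the reporter level. There were 12 for Negative, 15 for Sublow, 22 for Low and 35 for High. Taken singly, only the Neurog3 window rose at every step. The High list was not the longest of the series: the whole lists held 45461 peaks for Negative, 52113 for Sublow, 58356 for Low and 54395 for High. The windows held 21.6 peaks per Mb in Negative, against 17.2 over the whole Negative list, a ratio of 1.26. They held 27.0 per Mb in Sublow, against 19.7 over the whole list, a ratio of 1.37. They held 39.6 per Mb in Low, against 22.1 over the whole list, a ratio of 1.79. They held 63.1 per Mb in High, against 20.6 over the whole list, a ratio of 3.06. Whole-list densities count each chromosome up to its last peak. The 50 kb on each side of the windows, chosen after the data were seen, held 35 more regions. High held 29 of these (82.9%), so regions of High were not confined to the windows. In bases, the peaks covered 4722 bp for Negative (mean width 393.5 bp), 8884 bp for Sublow (592.3 bp), 10908 bp for Low (495.8 bp) and 18649 bp for High (532.8 bp). In windows shortened by 25 kb on both sides Low and Sublow were nearly level in peaks, at 11 and 10, and Sublow covered more bases than Low, with 7096 bp for Low and 7379 bp for Sublow.

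**Figure D1:**
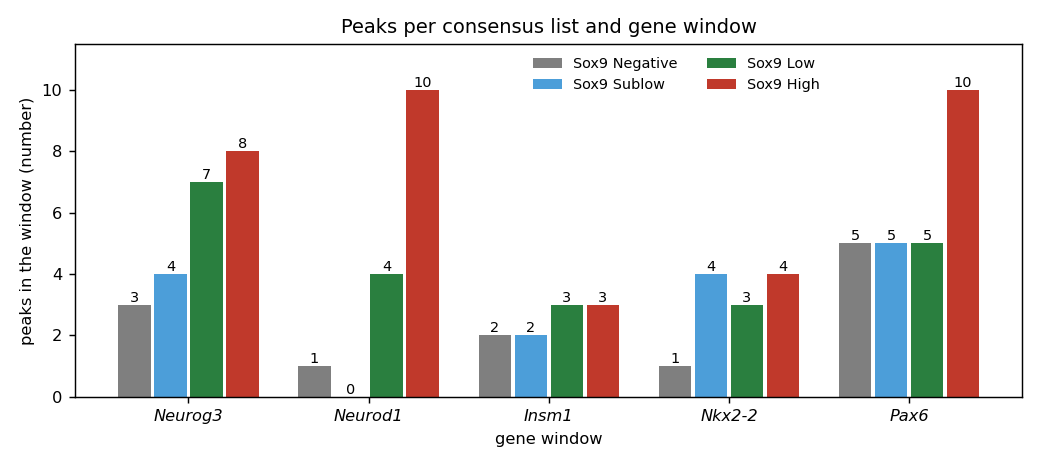
Number of consensus peaks (y axis) that overlapped each gene window (x axis), 1 bar per population list in order of reporter level, each bar 1 consensus list of 3 libraries without an error. High had the most peaks or tied for the most in all 5 windows, and Sublow had 0 in the Neurod1 window.

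Gene by gene the gap between the lists differed. The Neurod1 window had 1 peak for Negative, 0 for Sublow, 4 for Low and 10 for High. The Neurog3 window had 3 for Negative, 4 for Sublow, 7 for Low and 8 for High, so High and Low were close there. In the Pax6 window High had 10, and Negative, Sublow and Low had 5 each. The Insm1 window had 2, 2, 3 and 3 peaks in Negative, Sublow, Low and High, and the Nkx2-2 window had 1, 4, 3 and 4 in that order, so High tied with Low at Insm1 and with Sublow at Nkx2-2. High had more peaks than each of the other lists in 3 of the 5 windows, and 28.0% of the 15379 tiles of 100 kb that hold a peak showed the same. No list had more than High in 5 of 5 windows, against 50.9% of tiles. The windows are somewhat longer than the tiles.

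The lists that held each region show the same grading. High held 35 of the 37 regions (94.6%), and 65.1% of all merged regions were held by High. Low held 23 regions (62.2%, against 69.8% of all), Sublow held 14 (37.8%, against 62.8%) and Negative held 11 (29.7%, against 53.9%). Regions held by High alone numbered 13 of 37, or 35.1% (exact Clopper-Pearson 95% interval 20.2 to 52.5%), and 16.6% of all merged regions were of this kind. Regions held by Low and High and by no other list numbered 8, or 21.6% (9.83 to 38.2%), against 5.98% of all. Regions held by all 4 lists numbered 9, or 24.3% (11.8 to 41.2%), against 33.1% of all. These intervals treat the regions as independent draws, although they are all the regions of the windows and those of 1 window are neighbours. They hold no error between libraries and are not a test against the share of all regions. Under a reciprocal overlap of 50%, the regions of all 4 lists numbered 5 of 46 (10.9%, against 24.8% of all). High then held 35 of the 46 (76.1%, against 57.6% of all). In windows shortened by 25 kb on both sides, regions of High alone were 7 of 19 (36.8%, against the same 16.6%). Regions of Low and High alone were 2 of 19 there (10.5%, against the same 5.98%). With only peaks wholly inside a window, which leaves out the region at the edge of the Neurod1 window, they were 7 of 36 (19.4%). With only the widest peaks of each list, regions of High alone were 8 of 17 (47.1%, against 13.6% of all). Regions that only Negative lacked numbered 3, or 8.11%, against 7.49% of all.

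**Figure D2:**
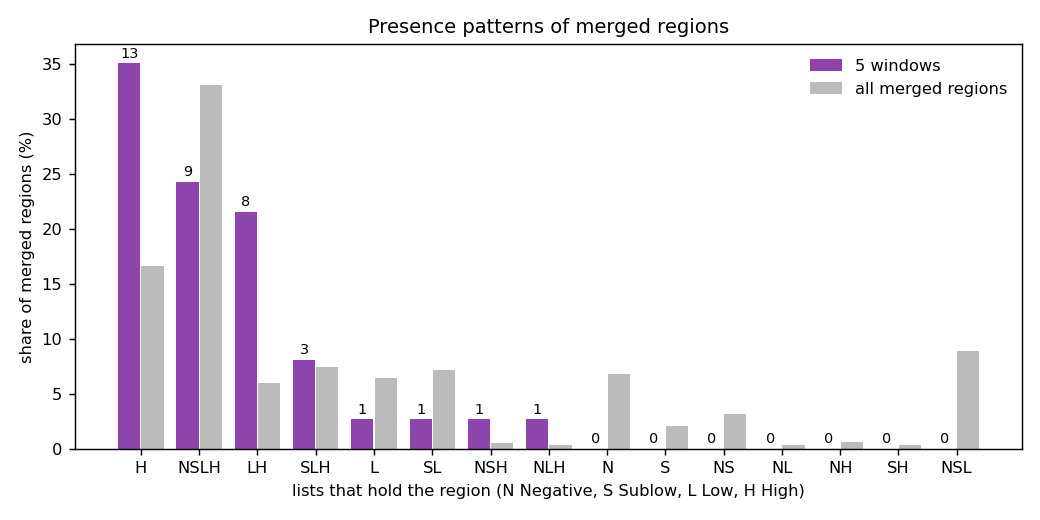
Share of merged regions (y axis, %) held by each combination of lists (x axis; N Negative, S Sublow, L Low, H High), for the 37 regions of the 5 windows (purple, left, with the number above the bar) and for all 82365 merged regions (grey). High alone made up 35.1% in the windows and 16.6% in all, and no region of the windows was held by Negative alone.

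In the windows, 24 regions (64.9%, against 30.4% of all merged regions) were held by High and lacked by Negative. None was held by Negative and lacked by High, against 19.2% of all. Between High and Low, 14 regions were held by High and not by Low (37.8%, against 18.2% of all), and 2 by Low and not by High (5.41%, against 22.8% of all). Over the whole series Low-only regions thus outnumbered High-only ones in this pair, and in the windows they did not. For Low against Sublow, 10 regions were in Low and not in Sublow (27.0%, against 13.1% of all) and 1 was in Sublow and not in Low (2.70%, against 6.10%). Between Sublow and Negative, 4 were held by Sublow and not by Negative (10.8%, against 17.1%) and 1 by Negative and not by Sublow (2.70%, against 8.15%). Among the 14 regions of 2 or 3 lists, 12 belonged to populations next to each other in reporter level (85.7%, against 93.7% of all such regions). Both exceptions are described with their genes, Neurod1 and Pax6.

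**Figure D3:**
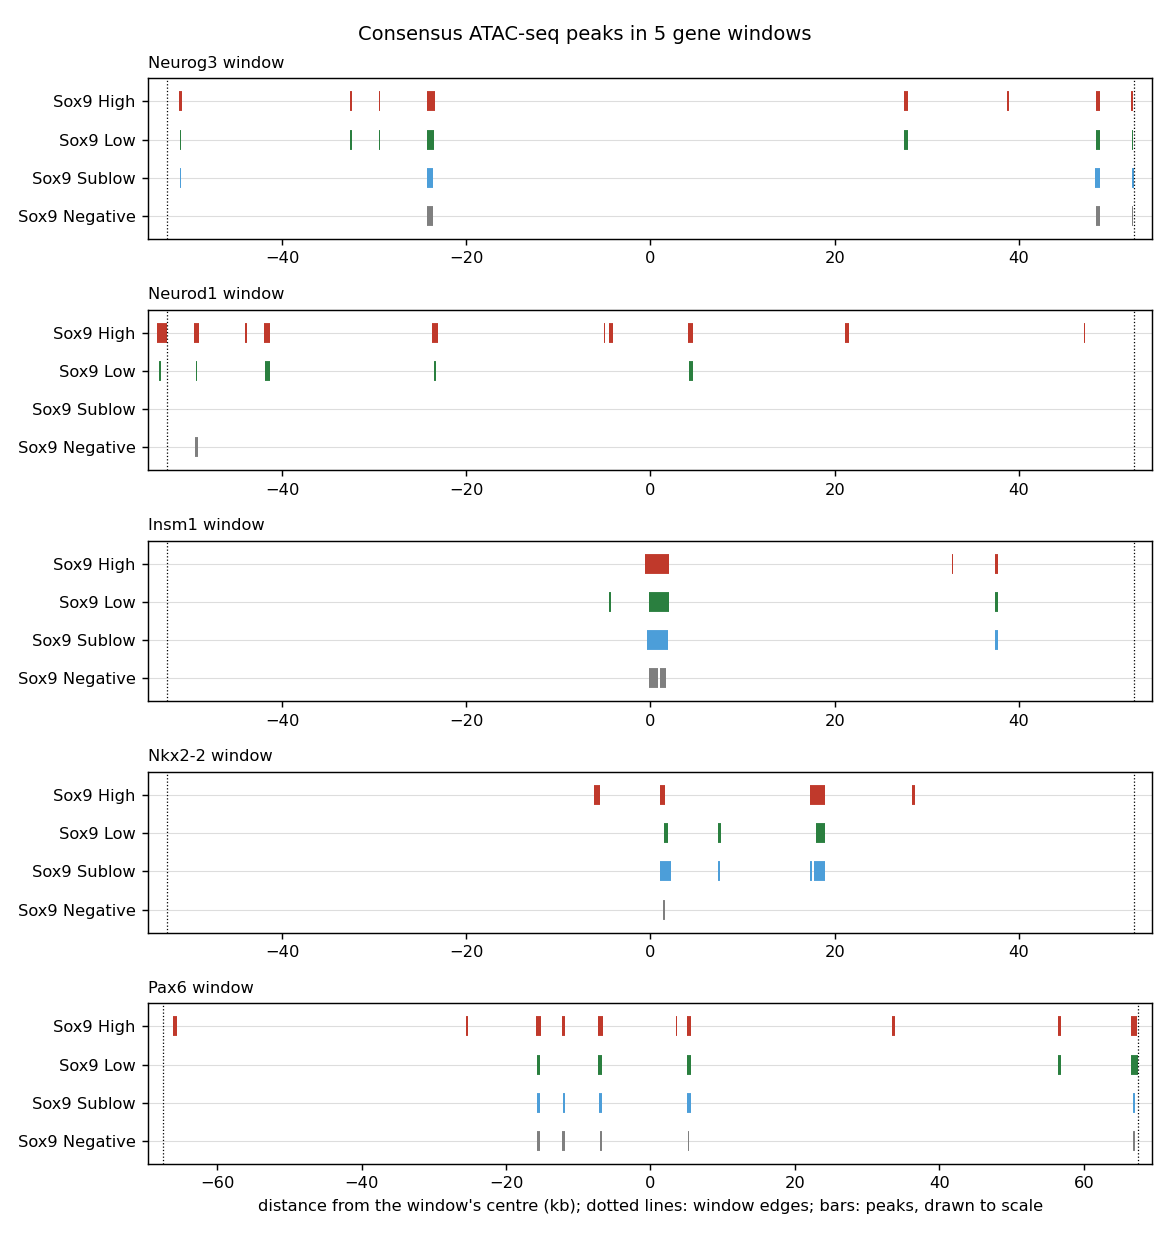
Map of the peaks in the 5 windows, with 1 row per population list from Sox9 High at the top to Sox9 Negative at the bottom; the x axis is the distance from the window's centre in kb, bars are peaks drawn to scale and dotted lines are the window edges. The rows thin out from High to Sublow most clearly in the Neurod1 window, where Sublow has no peak and Negative has 1. A broad block near the centre of the Insm1 window is present in every row.

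At Neurog3, which starts the endocrine programme, 3 of the 8 regions were held by all 4 lists and 7 by Low. The widest region, chr10:61573205-61574144, was listed over 668 bp for Negative, 725 bp for Sublow, 777 bp for Low and 940 bp for High. Its length thus grew with each reporter level, and 9.48% of High peaks were at least as wide. The region at chr10:61645803-61646304 went the other way at the top of the range, with 420 bp for Negative, 491 bp for Sublow, 420 bp for Low and 393 bp for High. The third shared region, chr10:61649678-61649954, had 146 bp for Negative, 184 bp for Sublow, 173 bp for Low and 239 bp for High. Between the first of these and the next region lay the longest stretch of the window with no peak in any list, 50.9 kb from 61574145 to 61625009. This stretch spans the centre of the window, and the regions beside it were centred at -23.8 and 27.7 kb from that centre. With the window shortened by 25 kb on both sides, 1 Neurog3 region of all 4 lists remained and 0 of High alone.

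Low and High alone shared 3 Neurog3 regions, on either side of that empty stretch. They were chr10:61564889-61565063, with 174 bp for High and 175 bp for Low, chr10:61568030-61568173, with 116 bp for High and 144 bp for Low, and chr10:61625010-61625458, with 418 bp for High and 403 bp for Low. Peak lengths in High and Low were thus close at the first and last of them. One region, chr10:61546357-61546655, was missing from Negative only, and was listed over 196 bp for Sublow, 201 bp for Low and 299 bp for High. The only Neurog3 region of High alone was chr10:61636172-61636460, 289 bp long.

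At Neurod1, the factor that follows Neurog3, no region was held by all 4 lists and every one of the 10 was held by High. High alone held 5, of 115, 187, 445, 491 and 147 bp. The widest was chr2:79313615-79314105 (491 bp), and the pair at chr2:79287450-79287564 (115 bp) and chr2:79288018-79288462 (445 bp) lay 453 bp apart. All 5 were under 500 bp, as were most regions of High alone in the series, of which 7.58% reached 500 bp.

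The other 5 regions of the Neurod1 window were held by Low as well, 4 of them by Low and High alone, and High covered more bases in each. The region at the lower edge of the window, chr2:79238972-79240046, was listed over 1075 bp for High and 177 bp for Low. Only the end of its High peak reaches into the window, and its Low peak lies outside and is not among the 4 Low peaks counted. The region is thus a member only through High, and it enters the counts of High against Low given here. At chr2:79268761-79269404, High had 644 bp and Low 242 bp. At chr2:79250572-79251234, High had 663 bp and Low 546 bp, and at chr2:79296616-79297132, High had 517 bp and Low 377 bp. The High peak thus exceeded the Low peak by less at these last regions than at the edge. Over the whole series, High covered more bases than Low in 71.4% of the 4922 regions held by Low and High alone, and in the windows it did in 6 of 8. The remaining region, chr2:79242974-79243471, broke the reporter order, with 258 bp for Negative, none in Sublow, 195 bp for Low and 498 bp for High. This combination made up 0.357% of all merged regions.

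At Insm1, the zinc finger gene, the 4 regions included the broadest open stretch of the 5 windows. The region chr2:146046853-146049474 was listed over 1618 bp for Negative, as separate peaks of 992 and 626 bp, 2316 bp for Sublow, 2153 bp for Low and 2619 bp for High. Only 8 of the 54395 High peaks were at least as wide as the High peak here. Against their own peaks here, 36 of the 52113 Sublow peaks and 54 of the 58356 Low peaks were at least as wide. Each count includes the peak itself. With a reciprocal overlap of 50%, the Negative peaks no longer joined the others. A region missing from Negative only, chr2:146084881-146085210, had nearly the same length in the other lists, at 304 bp for Sublow, 320 bp for Low and 328 bp for High.

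The other Insm1 regions were narrow. High alone held chr2:146080226-146080344, of 119 bp. Low alone held chr2:146043018-146043210, of 193 bp, which was the only region of the 5 windows held by 1 list other than High. Low alone held 6.41% of all merged regions. The window's first 48.0 kb had no peak in any list.

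At Nkx2-2, which encodes the homeodomain factor, the lists differed in the extent of the regions as well as in their number. The region chr2:147003556-147004757 was the only one in all 4 lists, and it was listed over 234 bp for Negative, 1202 bp for Sublow, 467 bp for Low and 526 bp for High. Sublow was thus the widest there. The region chr2:147019821-147021455 was absent from Negative, and was listed over 1296 bp for Sublow, as peaks of 140 and 1156 bp, 969 bp for Low and 1635 bp for High. Of High peaks, 0.719% were at least as wide as that one.

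High alone held chr2:146996408-146997059, of 652 bp, and chr2:147030886-147031237, of 352 bp. The first was the widest region of High alone in the 5 windows, and 1 of 2 such regions that reached 500 bp. Sublow and Low shared chr2:147009795-147010141, with 271 bp for Sublow and 335 bp for Low, the only Nkx2-2 region that High lacked. Regions of Sublow and Low alone made up 7.18% of all merged regions. The first 46.4 kb of the window held no peak in any list, as at Insm1, which lies on the same chromosome.

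At Pax6, the paired-box gene, High held all 10 regions, and 4 of them were held by every list. The region chr2:105506681-105507292 was listed over 391 bp for Negative, 446 bp for Sublow, 483 bp for Low and 612 bp for High. At chr2:105515218-105515896 the lengths were 347 bp for Negative, 452 bp for Sublow, 555 bp for Low and 679 bp for High. Both grew at each step of reporter level. At chr2:105527557-105528114 the lengths were 138 bp for Negative, 467 bp for Sublow, 545 bp for Low and 509 bp for High. At chr2:105589038-105589948 they were 179 bp for Negative, 330 bp for Sublow, 899 bp for Low and 815 bp for High. Low was the widest at both of these, and Negative was the narrowest at all 4 regions.

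The Pax6 window also held 4 regions of High alone, centred at -65.8, -25.4, 3.6 and 33.7 kb from the centre of the window. They were chr2:105456447-105456988 (542 bp), chr2:105496981-105497210 (230 bp), chr2:105526017-105526242 (226 bp) and chr2:105555988-105556333 (346 bp). Low and High alone shared chr2:105578901-105579324, with 424 bp for High and 336 bp for Low. The region chr2:105510244-105510640 broke the reporter order, since it was listed over 323 bp for Negative, 204 bp for Sublow, none in Low and 385 bp for High. This combination made up 0.526% of all merged regions.

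**Figure D4:**
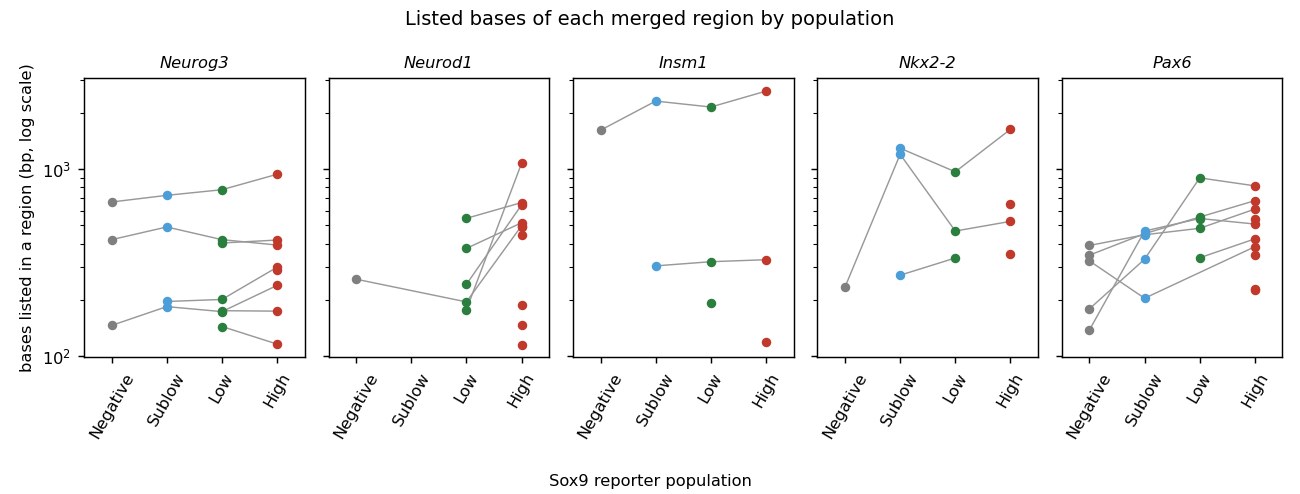
Bases listed in each merged region (y axis, bp, log scale) by population (x axis, in order of reporter level), 1 panel per gene window; each point is 1 list in 1 region, and lines join the lists that hold the same region, passing over a list that lacks it. Unjoined points are regions of 1 list, of which 13 were High and 1 was Low, and the Insm1 region of 2619 bp for High stands above all others.

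Where High shared a region with another list, it was the longest in most cases. High covered the most bases in 16 of 22 such regions (72.7%), against 28.0% of the 39933 such regions in the series. By gene, this was so in 4 of 7 regions at Neurog3, 5 of 5 at Neurod1, 2 of 2 at Insm1, 1 of 2 at Nkx2-2 and 4 of 6 at Pax6. The Neurod1 count includes the edge region, a member only through its High peak. The 72.7% and 28.0% mix regions held by different lists, so they are not like for like. Regions of Low and High alone were 8 of the 22, but 4922 of the 39933. Among regions of Low and High alone, High was the longer in 6 of 8 (75.0%), against 71.4% in the series. In the 9 regions of all 4 lists, the median listed length was 347 bp for Negative, 467 bp for Sublow, 545 bp for Low and 612 bp for High. Over all 27294 regions of this kind it was 541 bp for Negative, 680 bp for Sublow, 662 bp for Low and 578 bp for High. High was the longest in 5 of these 9 regions, against 18.4% of them in the series. The 13 regions of High alone had a median of 289 bp and a range of 115 to 652 bp, against a median of 245 bp over all 13694.

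The window edges decide which peaks count as members. The last region inside the Neurog3 window ended 46 bp from its edge and was held by all 4 lists, and the next outside, 5.3 kb beyond, was held by Sublow, Low and High. The last region inside the Pax6 window ended 52 bp from its edge and was also held by all 4 lists, and the next outside lay 154.3 kb beyond. Beyond the Nkx2-2 window the next region lay 1.8 kb away and was held by Low and High, and beyond the Insm1 window it lay 4.1 kb away and was held by Sublow, Low and High. In the RefSeq gene order of GRCm38.p6 the nearest protein-coding genes are Fam241b and Tspan15 for Neurog3, Cerkl and Itprid2 for Neurod1, Cfap61 and Ralgapa2 for Insm1, Nkx2-4 and Pax1 for Nkx2-2, and Rcn1 and Elp4 for Pax6, where Elp4 overlaps Pax6. Peaks were not assigned to genes, so some peaks of a window may lie in or serve a neighbour.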

How the data were processed

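Omni-ATAC-seq of 12 libraries is represented by 4 consensus peak lists that the authors deposited, 1 per population and each over 3 libraries. Each list gives a chromosome, start, end and name, and no score, signal or count. Per the submitters' processing notes, the tools included MACS2 2.1.2, Bowtie2 2.3.4, Trim Galore 0.4.3, deepTools 2.5.2 and Picard 2.10.3, and the build was mm9. Their settings, any shift of cut positions, and how libraries were combined are not given in the sources used here. A stricter or looser consensus rule would change which narrow peaks are listed.

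Each list has at least 1 peak whose start equals its end; positions were therefore read as counted from 1, and lengths as end minus start plus 1. Peaks of different lists were merged into regions with an overlap of 1 bp or more, or on touching, and a region was described by the lists that hold it. The length of a list in a region is the sum of its peaks there. Peaks overlapping a window were counted in full. Background shares are over all merged regions, or over tiles of 100 kb. The text names each gene with its 3 widest regions, all regions of 4 lists, the widest region of High alone and any region of 1 other list; the remaining regions were added after their values were seen. The members, motifs and lists were chosen with earlier results of these data known. Lists of other enteroendocrine regulators and of cell type markers were not used, since an mm9 annotation was not used here, so the labelled cell types were not checked against markers. The merging was tested on simulated data. Python 3.11.15, numpy 2.4.6, scipy 1.17.1 and matplotlib 3.10.9 were used. The alternatives were a reciprocal overlap of 50%, merging up to 500 bp apart, peaks of at least 200 bp, the widest 22730 peaks of each list, windows shortened by 25 kb on both sides, peaks wholly inside a window, and starts counted from 0.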

Additional observations from a re-analysis of the deposited data

How the results depend on the processing

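No paired analysis was possible because the lists give no values of single libraries, so replicates could not be left out either. Of the values recomputed, 95 stayed within 1.5 times the value in the report and 36 did not, all by becoming smaller except Neurog3 regions of High alone, which numbered 2 with peaks of at least 200 bp. With a reciprocal overlap of 50%, 5 of 46 regions were in all 4 lists (10.9%, against 24.8% in the series). With the widest peaks only, which removes peaks by construction, the windows held 4 peaks (2706 bp) for Negative, 4 (5399 bp) for Sublow, 7 (6444 bp) for Low and 16 for High. Of 17 regions there, 2 were in all 4 lists (11.8%, against 40.0% in the series). In High alone there were 8 (47.1%, against 13.6%), and in High and not Negative 14 (82.4%, against 22.5%). Windows shortened by 25 kb on both sides held 8 peaks (3719 bp) for Negative, 10 (7379 bp) for Sublow, 11 (7096 bp) for Low and 17 (11571 bp) for High, so the order of Low over Sublow in bases was lost. Of 19 regions there, 7 were in High alone (36.8%, against 16.6%) and 10 in High and not Negative (52.6%, against 30.4%). The share of regions in High alone ran from 33.3% to 47.1% in the windows and from 13.6% to 19.2% in the series over the 7 alternatives. The share of Low and High alone was 10.5% in the shortened windows, against 5.98% in the series. Without depth, a weak region and a closed one cannot be told apart.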

Other observations

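The 50 kb on each side of the 5 windows, a distance chosen after the data were seen, held another 35 regions. Of these, 14 were held by High alone (40.0%, against 35.1% inside the windows and 16.6% of all merged regions), 3 by Low and High alone (8.57%, against 21.6% inside and 5.98% of all) and 6 by all 4 lists (17.1%, against 24.3% inside and 33.1% of all). The share of High alone was thus no lower outside the windows than inside them. High, alone or with other lists, held 29 of the 35 flank regions (82.9%, against 94.6% inside and 65.1% of all). The flank after the Insm1 window held 8 regions, of which 5 were held by High alone and 0 by Negative, which held 53.9% of all merged regions. The flank after the Nkx2-2 window held 4, of which 2 were held by High alone and 2 by Low and High alone. The flank after the Neurod1 window went the other way, with 4 regions, of which Negative, Sublow and Low held 3 each and High held 2. The flank after the Neurog3 window was the fullest of the 10, with 11 regions, of which 4 were held by all 4 lists and 2 by High alone. Negative held 6 of these 11, Sublow 8, Low 7 and High 9. Both flanks of the Pax6 window held no region in any list.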
